A study of Mus musculus with 6 samples.

Results

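Genes of DNA replication and mitosis were followed in cells sorted from adult mouse islets. They are 44 genes chosen by name, of 46959 genes in the deposited expression table, and all 44 were found there by symbol: 9 load and fire the replicative helicase, 4 copy DNA or supply nucleotides, 5 are G1 to S cyclins or E2F factors, 7 are later cyclins, kinase partners or checkpoint genes, 10 are mitotic kinases, spindle checkpoint genes or parts of the ubiquitin ligase that ends mitosis, and 9 belong to chromosomes, kinetochores or the spindle. The study sorted islet cells by 2 reporters that all the mice carried: an mCherry fused to histone H2b and driven by Ins1, which marks cells that have used the insulin promoter, and an eGFP driven by Ucn3, which marks mature beta cells. Immature beta cells were positive for mCherry alone, mature beta cells for both reporters, and double negative cells, the other cells of the same islets, for neither. Each group had 2 libraries from adult mice, 6 in all. The series' design text describes pools of 10 to 12 females per library, and the islets were cultured overnight and dissociated with trypsin before sorting. The labels call replicate 1 of each group male and replicate 2 female.

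Before a cell copies its DNA, the origin recognition factors, Cdc6 and Cdt1 load a ring of the proteins Mcm2 to Mcm7 onto origins, and cyclin-dependent kinases then start the ring as a helicase while Pcna holds the polymerases on the template. Most of these genes are E2F targets that rise from late G1, whereas the genes of mitosis rise later, in G2. Adult beta cells divide rarely, and transcripts of the mitotic genes are a common measure of how many cells of a population are in cycle. In sorted bulk samples, fewer cells carrying a transcript and less of it per cell cannot be told apart.

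The promoters of these genes carry the sequence elements by which both waves are known, and a few are shown here because the replication and the mitosis genes differ in them. RefSeq promoter windows of GRCm38.p6, from 250 bases before to 50 bases after a start, were found for 36 of the 44 genes. E2F sites were searched as TTTCGCGC, TTTGGCGC or TTTCCCGC, the CHR element of mitotic genes as TTTGAA, and the NF-Y box as CCAAT, each on both strands and with overlaps allowed. At least 1 of the E2F words stood in 7 of 15 genes of helicase loading, DNA synthesis and G1 to S control, in 1 of 21 genes of the later groups, and in 2.12% of all 27025 genes in the promoter table. TTTGAA stood in 3 of 15, 14 of 21 and 20.2%, and CCAAT in 10 of 15, 18 of 21 and 41.1%. Such a match is a description of letters and not of a bound site. In the stretches below, which end at the last base before the start and read 5′ to 3′ on the strand of the gene, capitals mark these words or their complements. Mcm6 (chr1:128359706-128359825, minus strand) and Mcm5 (chr8:75109349-75109508, plus strand) show overlapping E2F words read from both strands, Cdk1 (chr10:69352913-69353052, minus strand) shows E2F, CCAAT and TTTGAA words together, and Cdc20 (chr4:118437344-118437413, minus strand) and Top2a (chr11:99024190-99024299, minus strand) show CCAAT and TTTGAA alone.
Mcm6: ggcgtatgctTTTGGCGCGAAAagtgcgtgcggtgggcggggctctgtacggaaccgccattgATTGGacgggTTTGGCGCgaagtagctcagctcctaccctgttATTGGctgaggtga
Mcm5: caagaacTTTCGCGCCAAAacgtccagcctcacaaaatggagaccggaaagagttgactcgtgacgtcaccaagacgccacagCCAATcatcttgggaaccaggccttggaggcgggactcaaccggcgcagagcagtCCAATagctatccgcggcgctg
Cdk1: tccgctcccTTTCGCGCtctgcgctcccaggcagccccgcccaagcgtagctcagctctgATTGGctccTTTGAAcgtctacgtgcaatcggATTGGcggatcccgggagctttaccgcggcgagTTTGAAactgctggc
Cdc20: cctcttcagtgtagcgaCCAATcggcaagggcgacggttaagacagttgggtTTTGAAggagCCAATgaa
Top2a: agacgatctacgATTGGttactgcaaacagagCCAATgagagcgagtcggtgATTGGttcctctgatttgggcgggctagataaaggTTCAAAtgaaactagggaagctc

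The libraries differed in depth and in the cells they held. Values are RPKM, reads scaled by gene length and library size, and the steps between low values correspond to 2393841 and 3448926 reads in the immature libraries and to between 22063880 and 26824380 in the others. The level that 3 reads would give in a gene of 1 kb was 1.25 and 0.87 RPKM for immature libraries, against 0.112 to 0.136 RPKM for the other 4. All 8 beta cell markers stood at 1 RPKM or more in every immature and mature library, but summed to 72860 and 77980 RPKM in immature against 246400 and 263200 RPKM in mature libraries. In the double negative libraries 7 and 8 of them reached 1 RPKM, with sums of 4710 and 7016 RPKM. The 6 alpha cell markers summed to 29140 and 19840 RPKM in immature against 661.1 and 866.4 RPKM in mature libraries, and the 5 delta and PP cell markers to 10670 and 12240 RPKM against 391.3 and 493.7 RPKM. The immature libraries also held all 11 macrophage and dendritic cell markers, with a summed level of 1539 and 1597 RPKM against 61.41 and 61.84 RPKM in mature and 46.85 and 48.82 RPKM in double negative libraries. The 9 endothelial markers summed to 834.6 and 784.6 RPKM in immature, 4.52 and 2.89 RPKM in mature and 191.7 and 201.4 RPKM in double negative libraries. The 8 markers of pericytes, stellate cells and fibroblasts summed to 141.8 and 99.65 RPKM in immature libraries and to under 0.5 RPKM in each mature library, and 9 acinar markers to 7226 and 23100 RPKM in immature libraries and 144.8 and 99.15 RPKM in mature ones. Of 8 markers of T and B lymphocytes, 4 and 6 were listed at 0 in the immature libraries, 6 in each mature library and 3 and 2 in the double negative ones. A 0 in the shallower immature libraries is a weaker limit than a 0 in the others. The sex labels went against the data: Xist, which is made from the inactive X, was at 21.4 RPKM or more in all 6 libraries, and of the Y-linked genes Ddx3y did not pass 0.161 RPKM in any library labelled male and stood at 1.23 RPKM in the immature library labelled female. The sexes were therefore not compared.

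The first question was whether immature and mature beta cells differ in these genes. A gene was tested where at least 2 of the 6 libraries reached 1 RPKM. That left 16 of the 44 genes, among them 7 of 9 helicase loading genes, all 4 of DNA synthesis and 3 of 5 G1 to S genes, but 1 of 7, 1 of 10 and 0 of 9 of the later groups. Rrm2 and Chek1 passed the filter through the immature libraries alone, and Ccne1 through them and 1 mature library, so their counts below describe a selected set. By limma on log2(RPKM + 1), 9 of the 16 were higher in immature cells, 1 was lower and 6 did not pass an adjusted p of 0.05. Over all 13367 tested genes 49.8% were higher and 15.5% lower, so the 56.25% of members that were higher is near the background. The median difference of the 16 was 0.56, against 0.29 for all tested genes. After median-ratio rescaling, where Chek1 was not tested, 7 members were higher and 4 lower, against 3930 and 5001 of all 13239 tested genes. After quantile normalization 3 members were higher and 6 lower, against 3367 and 5354 of 13367. The share of higher genes among all called genes moved from 76.2% to 44% and 38.6%, and the median of all genes to -0.09 and -0.16. By voom, in which Mcm5, Cdt1 and Rrm1 could not be fitted, 6 members were higher and 2 lower, against 2907 and 2903 of 8996 genes. Of all called genes 50.03% were higher by voom.

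Mcm3 and Cdt1 differed most. Mcm3 (ENSMUSG00000041859.10, chr1:20802968-20820312, minus strand, GRCm38) encodes a subunit of the helicase ring and measured 7.68 and 9.43 RPKM in immature, 1.12 and 0.954 RPKM in mature and 2.54 and 3.13 RPKM in double negative libraries. Every immature value lay above every other one, and the immature values rest on 69 and 122 reads. It was 2.22 (SE 0.13) higher in immature than in mature cells on the log2 scale (limma adjusted p = 4.76e-05). Because 1 RPKM was added before the log, that scale understates low genes: the summed reads gave an immature to mature ratio of 8.43, with a 95% interval of 6.87 to 10.3 that covers counting error only. Cdt1 (ENSMUSG00000006585.3, chr8:122568015-122573554, plus strand), which brings the ring to origins, measured 7.44 and 8.48 RPKM in immature, 1.04 and 0.766 RPKM in mature and 1.01 and 1.19 RPKM in double negative libraries. The mature and double negative values overlapped and the immature values stood alone. The rise was 2.24 (SE 0.12, limma adjusted p = 3.06e-05), on 39 and 64 immature reads.

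The other genes of the ring moved by less, and 1 did not pass. Mcm6 (ENSMUSG00000026355.11, chr1:128331590-128359664, minus strand), whose promoter is the first of those printed above, measured 6.45 and 6.71 RPKM in immature, 1.88 and 1.61 RPKM in mature and 4.47 and 4.54 RPKM in double negative libraries, an ordered set with no overlap. It rose by 1.47 (SE 0.09, limma adjusted p = 4.58e-05). Mcm5 measured 5.49 and 4.07 RPKM in immature, 1.92 and 1.80 RPKM in mature and 2.28 and 2.58 RPKM in double negative libraries. Its immature values were again the highest, and it rose by 1.004 (SE 0.14). Mcm7 measured 5.29 and 3.996 RPKM in immature, 2.02 and 1.86 RPKM in mature and 3.01 and 3.02 RPKM in double negative libraries, and rose by 0.93 (SE 0.13). The microRNAs Mir25 and Mir93 overlap 1.9% and 1.99% of its annotated exons on the same strand. The exons of Mcm7 overlap those of Ap4m1 on the opposite strand over 7.25% of their length, and the library kit does not mark strand, so reads of such pairs cannot be told apart. Mcm4 measured 9.08 and 7.11 RPKM in immature, 4.86 and 4.196 RPKM in mature and 5.92 and 6.63 RPKM in double negative libraries, and rose by 0.71 (SE 0.13). Mcm2 (ENSMUSG00000002870.8, chr6:88883474-88898780, minus strand) measured 5.04 and 4.67 RPKM in immature, 4.98 and 5.18 RPKM in mature and 3.18 and 3.07 RPKM in double negative libraries. Its immature and mature values overlapped, with a difference of -0.05 (SE 0.08, limma adjusted p = 0.571). Thus in mature cells the levels within the ring ran from a mean of 1.04 RPKM for Mcm3 to 5.08 RPKM for Mcm2, and in immature cells from 4.64 RPKM for Mcm7 to 8.55 RPKM for Mcm3. Mcm3, Mcm6 and Cdt1 kept their calls in each alternative in which they could be fitted. Mcm4, Mcm5 and Mcm7 did not pass after quantile normalization, at 0.21, 0.29 and 0.21, and Mcm2 was called lower after median-ratio rescaling, quantile normalization and voom, at -0.42, -0.61 and -0.48.

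**Figure D1:**
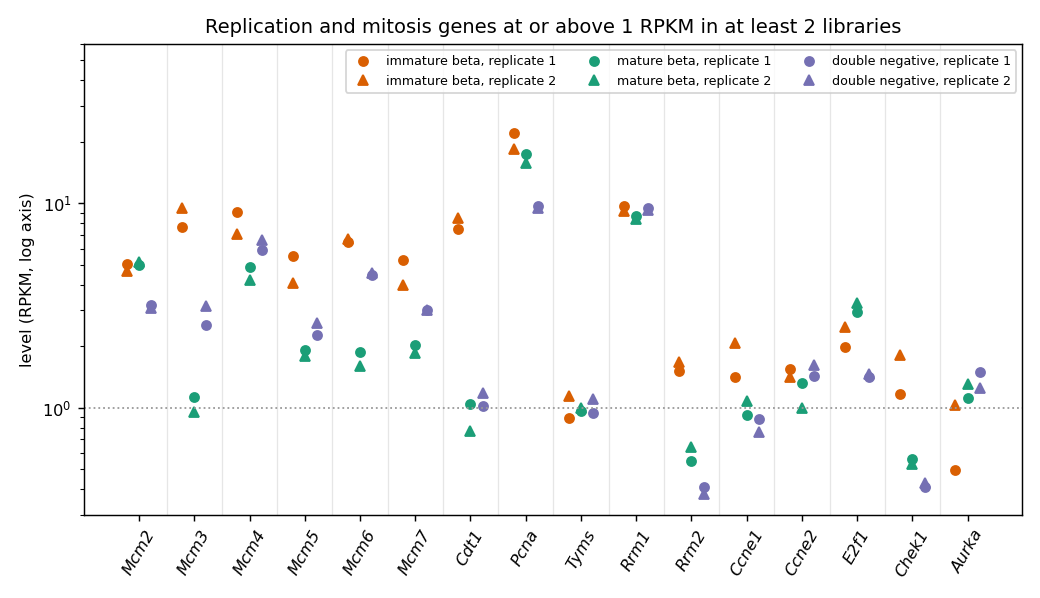
Level of the 16 tested genes in each library, in RPKM on a log axis; circles are replicate 1 and triangles replicate 2, and the dotted line is 1 RPKM. Immature values of Mcm3, at 7.68 and 9.43 RPKM, and of Cdt1, at 7.44 and 8.48 RPKM, stand apart from the other libraries, while Rrm1 lies between 8.41 and 9.72 RPKM throughout.

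The macrophage marker Ptprc, which marks blood-derived cells, measured 5.45 and 5.18 RPKM in immature libraries against 0 and 0.00611 RPKM in mature ones, and the endothelial marker Cdh5 at 125.2 and 124.9 RPKM against 0.497 and 0.262 RPKM. These markers, the alpha, delta and PP cell markers and the lower beta cell markers moved with the rise of the helicase genes, and their part in it was not tested.

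Of the 4 genes of DNA synthesis, Rrm2 was called between the 2 beta cell groups and the others did not pass. Pcna (ENSMUSG00000027342.14, chr2:132249162-132253314, minus strand), the sliding clamp, was the highest of the 44 genes in every library, at 22.1 and 18.5 RPKM in immature, 17.4 and 15.7 RPKM in mature and 9.67 and 9.42 RPKM in double negative libraries. The groups did not overlap, yet the immature to mature difference of 0.27 (SE 0.10) had a limma adjusted p = 0.0505. It was called without immature replicate 2, at 0.40, after thinning to the shallowest library, at 0.51, and, at 0.27, with a filter of 5 RPKM and with the replicate number as a block. It turned to -0.15 after median-ratio rescaling and -0.14 by voom, without a call. The processed copy Pcna-ps2 was listed at between 0.665 and 2.18 RPKM, and how reads shared with it were counted is not given in the sources used here. Rrm1, the large subunit of ribonucleotide reductase, measured 9.72 and 9.14 RPKM in immature, 8.62 and 8.41 RPKM in mature and 9.45 and 9.28 RPKM in double negative libraries, a difference of 0.13 (SE 0.06, limma adjusted p = 0.118). It was called higher without immature replicate 2, at 0.17, and lower after median-ratio rescaling and quantile normalization, at -0.27 and -0.26. Tyms, which makes thymidylate, lay between 0.892 and 1.14 RPKM in all 6 libraries, with a difference of 0.02 (SE 0.11) that became -0.75, a call, after quantile normalization. Rrm2, the small subunit, which cells make mainly in S phase, measured 1.51 and 1.67 RPKM in immature, 0.548 and 0.646 RPKM in mature and 0.409 and 0.381 RPKM in double negative libraries. It rose by 0.70 (SE 0.10, limma adjusted p = 0.00164), on 10 and 16 immature reads, and the difference was -0.12 after quantile normalization.

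The G1 to S regulators did not move together. E2f1 (ENSMUSG00000027490.17, chr2:154559407-154569892, minus strand), an activator of the replication genes, was the 1 member that was lower in immature cells, measuring 1.99 and 2.48 RPKM there, 2.95 and 3.26 RPKM in mature and 1.41 and 1.47 RPKM in double negative libraries. The fall was 0.35 on the log2 scale (SE 0.11, limma adjusted p = 0.0332) and did not pass by limma without immature replicate 1 (-0.24), without mature replicate 1 or 2 (-0.40 and -0.29) or without either double negative library (-0.35). It was also not called with no filter, with library quality weights or with the 4 libraries alone (-0.35), or after thinning (-0.29), while median-ratio rescaling, quantile normalization and voom gave calls at -0.66, -1.06 and -0.84. Ccne1, a cyclin that drives S phase entry, measured 1.41 and 2.07 RPKM in immature, 0.919 and 1.08 RPKM in mature and 0.885 and 0.760 RPKM in double negative libraries. It rose by 0.45 (SE 0.14, limma adjusted p = 0.0349), a call lost without either mature replicate (0.39 and 0.50) and without either double negative replicate (0.45). It was also lost with no filter and with the 4 libraries alone (0.45), by voom (0.44) and after median-ratio rescaling (0.19), and quantile normalization gave -0.39. Its partner in function Ccne2 measured 1.55 and 1.41 RPKM in immature, 1.33 and 0.992 RPKM in mature and 1.43 and 1.62 RPKM in double negative libraries, with a difference of 0.20 (SE 0.12, limma adjusted p = 0.174) that became -0.61, a call, after quantile normalization. Exons of Ints8 on the opposite strand overlap 17.4% of Ccne2. E2f2, another activator, and E2f8, a repressor, were below the filter, at 0.573 to 0.891 RPKM and 0 to 0.154 RPKM.

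Of the genes that act in G2 and mitosis, 2 were tested. Chek1, the kinase of the replication checkpoint, measured 1.17 and 1.81 RPKM in immature, 0.564 and 0.531 RPKM in mature and 0.411 and 0.427 RPKM in double negative libraries. It rose by 0.68 (SE 0.145, limma adjusted p = 0.00784), a call lost without mature replicate 2 (0.66), and quantile normalization gave -0.12. Aurka, a kinase of the spindle poles, measured 0.495 and 1.03 RPKM in immature, 1.12 and 1.31 RPKM in mature and 1.504 and 1.25 RPKM in double negative libraries. Both immature values lay below the mature ones, on 3 and 9 reads, with a difference of -0.34 (SE 0.17, limma adjusted p = 0.122). It was called lower without immature replicate 2, at -0.56, after median-ratio rescaling, at -0.55, and after quantile normalization, at -1.05.

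**Figure D2:**
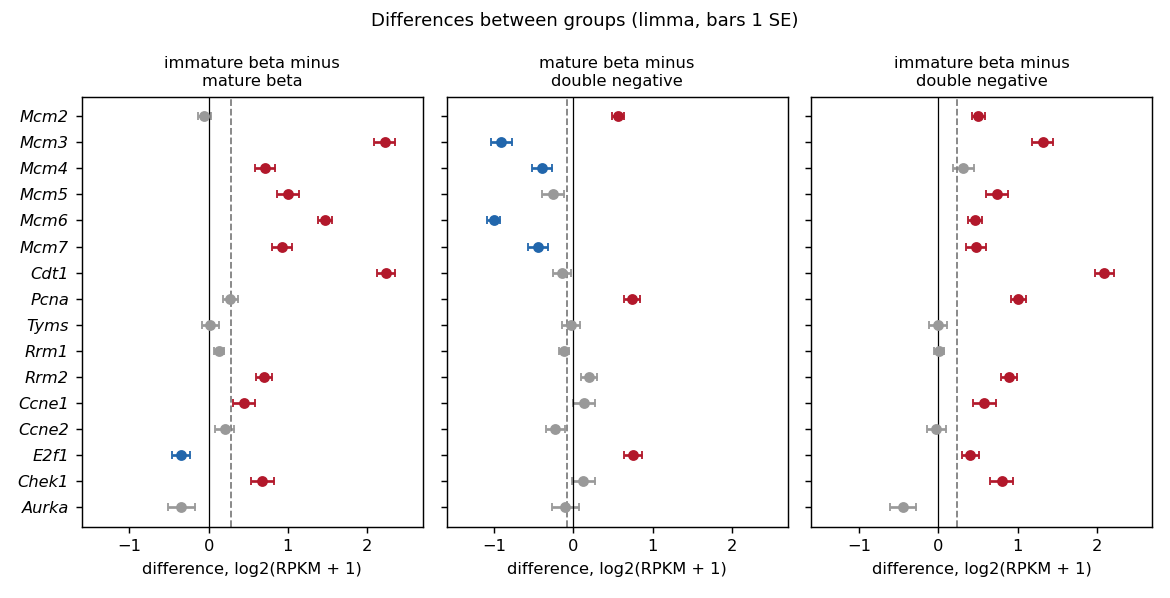
Difference in log2(RPKM + 1) for the 16 tested genes in each comparison, with bars of 1 SE; red genes were called higher, blue genes lower and grey genes neither, and the dashed line is the median of all tested genes. In immature minus mature cells Mcm3 (2.22) and Cdt1 (2.24) lie farthest from that line.

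The remaining 28 genes did not reach the filter, and most are the genes by which dividing cells are usually counted. Their levels ran from 0 to 1.16 RPKM in the first immature library, from 0 to 0.891 in the second, from 0 to 0.725 in the first mature library and from 0.00242 to 0.573 in the second, and from 0.0312 to 0.788 and from 0.0505 to 0.586 RPKM in double negative replicates 1 and 2. In the immature libraries 17 and 12 of them rest on fewer than 3 reads, and a count of 3 reads would give between 0.0812 RPKM for Cenpf and 1.81 RPKM for Cks2 in the first library and between 0.0564 and 1.26 RPKM in the second. Summed over the 28, the level was 10.1 and 9.58 RPKM in immature, 5.11 and 4.42 RPKM in mature and 7.03 and 7.28 RPKM in double negative libraries, from 110 and 145 reads in the immature ones. Both immature values lay above both mature values for 19 of the 28 and below them for 1. Over all 44 the counts were 31 and 3, which is 70.5% and 6.82%, where 42% and 17.4% of the 25803 genes above 0 in any library did so. Those genes were not matched to the members in read totals, so whether the shares differ for like genes was not tested.

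The best known of these markers were measured at under 0.5 RPKM in all 3 groups. Mki67 (ENSMUSG00000031004.8, chr7:135689784-135716361, minus strand), the Ki-67 antigen of cycling cells, measured 0.332 and 0.374 RPKM in immature, 0.121 and 0.196 RPKM in mature and 0.279 and 0.314 RPKM in double negative libraries. The mature values were the lowest, and the immature ones rest on 8 and 13 reads. The ratio of summed reads was 2.22 for immature to mature (95% counting interval 1.3 to 3.61) and 1.2 for immature to double negative (0.72 to 1.91). Top2a, the topoisomerase that untangles sister chromosomes, measured 0.371 and 0.418 RPKM in immature, 0.281 and 0.211 RPKM in mature and 0.267 and 0.312 RPKM in double negative libraries, with an immature to mature ratio of 1.64 (0.975 to 2.63). Cdk1, the kinase that starts mitosis, measured 0.242 and 0.421 RPKM in immature, 0.135 and 0.227 RPKM in mature and 0.145 and 0.230 RPKM in double negative libraries; the immature values are 2 and 5 reads, and the ratio was 1.89 (0.705 to 4.36). Ccnb1, its cyclin, was listed at 0.0991 and 0 RPKM in immature, 0.02 and 0.0265 RPKM in mature and 0.0430 and 0.0626 RPKM in double negative libraries. With 1 read and no read in the immature libraries, where 3 reads would give 0.297 and 0.206 RPKM, no difference in Ccnb1 was detectable at this depth.

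Over these 28 genes, Mki67 included, the counting interval of the immature to mature ratio lay above 1 for 12 of 28 and held 1 for 16. Of 10132 genes below the filter with whole reads, 19.9% had such an interval above 1, and 41.8% of the 2812 whose summed reads over the 6 libraries lay in the range of these 28, from 16 to 318, where 1.39% lay below 1. The count is near the latter share, so it is not particular to these genes. The helicase loader Cdc6 and the helicase subunit gene Gins2 had ratios of 3.46 (1.1 to 9.44) and 2.52 (1.28 to 4.65), and exons of Gse1 on the opposite strand overlap 67.3% of Gins2. The S phase cyclin Ccna2 had 2.95 (1.49 to 5.53), and Foxm1, which activates mitotic genes, 2.43 (1.53 to 3.76). The spindle checkpoint genes Bub1 and Bub1b had 7.21 (1.74 to 28.3) and 3.33 (1.43 to 7.13), on 5 and 10 immature reads. The spindle genes Nusap1, Tpx2 and Prc1 had 4.5 (2.11 to 9.13), 1.97 (1.04 to 3.48) and 2.08 (1.04 to 3.87), Cdc20, which activates the ligase that ends mitosis, 3.24 (1.04 to 8.73), and E2f8, on 4 against 3 reads, 11.5 (1.95 to 78.7). Opposite-strand exons of other genes also overlap 12.5% of Ccna2, 11.2% of E2f8, 11.1% of Prc1, 29.3% of Kif20a and 22.8% of Ube2c. Beside Top2a, Cdk1 and Ccnb1, the interval held 1 for Ccnb2, Cks2, E2f2, Ttk, Plk1, Aurkb, Birc5, Cdca8, Ube2c, Cenpe, Cenpf, Kif11 and Kif20a, whose ratios ran from 0.706 for Cdca8 to 5.19 for Cks2. Aurkb, Birc5 and Cdca8 belong to the complex that corrects chromosome attachment, and they had 1, 2 and 4 reads over both immature libraries. These intervals are set for 1 gene at a time and leave out the spread between animals. They and their background rest on the library sizes recovered from the deposited values and were not repeated after rescaling. Median-ratio rescaling moved the median immature to mature difference of all tested genes from 0.29 to -0.09 on the log2 scale. Whether lower limits near 1, such as 1.04 for Tpx2, Prc1 and Cdc20, would stay above 1 was not tested.

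**Figure D3:**
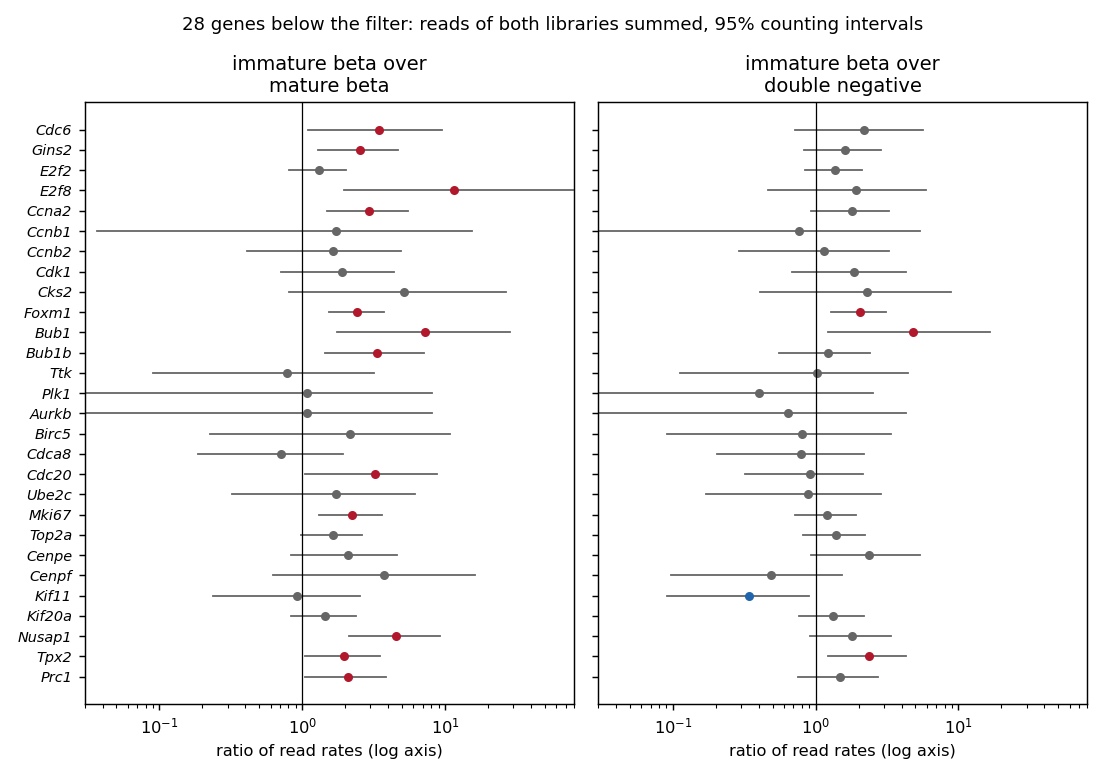
Ratio of read rates, with the reads of both libraries of a group summed, for the 28 genes below the filter; points are ratios on a log axis and bars 95% intervals for counting error alone, cut at the ends of the axis. Against mature cells 12 intervals lie above 1 (red), and against double negative cells 3 lie above 1 and 1, Kif11, below it (blue), where 41.8% and 32% of genes of like read totals lie above 1 and 1.39% and 2.13% below it.

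Mature beta cells were next set against the double negative cells sorted from those islets. By limma 3 of the 16 tested genes were higher in mature cells, 4 were lower and 9 did not pass, where 23.1% of all tested genes were higher and 31.2% lower. The 3 higher genes were Mcm2 by 0.56 (SE 0.08), Pcna by 0.73 (SE 0.10) and E2f1 by 0.75 (SE 0.11), with limma adjusted p = 0.00182, 0.00151 and 0.00212. The 4 lower genes all belong to the helicase ring: Mcm6 by -1.01 (SE 0.09), Mcm3 by -0.91 (SE 0.13), Mcm7 by -0.45 (SE 0.13) and Mcm4 by -0.40 (SE 0.13). The calls of Mcm4 and Mcm7 were lost without any 1 of the mature or double negative libraries, at -0.48 to -0.31 and -0.49 to -0.41. Both were also lost with no filter (-0.40 and -0.45) and after quantile normalization (-0.25 and -0.16). That of Mcm4 was lost as well with the replicate number as a block and with no trend (-0.40), after median-ratio rescaling (-0.30) and after thinning (-0.35). Pcna and E2f1 were not called after thinning, at 0.39 and 0.72. The difference was -0.14 (SE 0.12, limma adjusted p = 0.347) for Cdt1 and -0.26 (SE 0.14, limma adjusted p = 0.161) for Mcm5. Without either immature library Mcm5 (-0.26) was called lower and Rrm2 (0.19) higher, and Mcm5 was also called with library quality weights and with the 4 libraries alone. Among all alternatives, Rrm2 gained a call in 5 and Mcm5 in 4. Of all called genes 42.6% were higher in mature cells, and 52.7% after median-ratio rescaling.

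Below the filter, 17 of the 28 genes were lower in both mature than in both double negative libraries and 1 was higher. Over all 44 genes these counts were 24 and 7, or 54.5% and 15.9%, and 39.2% and 23.9% of all genes above 0, not matched in read totals, did so. The counting interval of the mature to double negative ratio lay below 1 for 11 of the 28, and for 38.4% of the 2812 genes of like read totals, which is near the same share. It lay above 1 for 0 of the 28 and for 12.5% of those genes. The genes with an interval below 1 included Mki67 at 0.542 (0.407 to 0.719), the kinetochore gene Cenpf at 0.132 (0.0503 to 0.294) and Cdc20 at 0.284 (0.151 to 0.506). The others were Bub1b at 0.366, the spindle motor gene Kif11 at 0.374, Nusap1 at 0.403, the polo kinase gene Plk1 at 0.373, Birc5 at 0.373, Ccna2 at 0.606, Gins2 at 0.635 and E2f8 at 0.166. For Top2a it was 0.841 (0.643 to 1.1) and for Cdk1 0.978 (0.573 to 1.68). In these double negative libraries the endothelial markers summed to 191.7 and 201.4 RPKM and the alpha cell markers to 178100 and 171600 RPKM, and the part of single cell types in these levels was not tested.

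The third comparison, immature beta against double negative cells, uses the same libraries as the first 2, so its values are given beside them and not as separate support. By limma 11 of the 16 tested genes were higher in immature cells and 0 were lower, where 45.9% and 10.6% of all tested genes were. At an unadjusted p under 0.05 the count lower was 1. Voom, in which Mcm5, Cdt1 and Rrm1 could not be fitted, called 4 higher and 0 lower. Cdt1 was higher by 2.09 (SE 0.12, limma adjusted p = 7.4e-05), Mcm3 by 1.32 (SE 0.13), Pcna by 1.01 (SE 0.10), Rrm2 by 0.89 (SE 0.10), Chek1 by 0.80 (SE 0.145) and Mcm5 by 0.74 (SE 0.14). The other calls were Ccne1 by 0.58, Mcm2 by 0.50, Mcm7 by 0.48, Mcm6 by 0.46 and E2f1 by 0.40. Among all alternatives, 3 lost the call of Mcm2, 3 that of Mcm6, 6 that of Mcm7 and 7 that of Ccne1. The call of E2f1 was lost in 10 and its direction turned in 1, and Mcm5 lost its call in 2 and Chek1 in 1. Without double negative replicate 1 the count fell to 7, with Mcm5 (0.68), Mcm7 (0.48), Ccne1 (0.63) and E2f1 (0.39) no longer called. Mcm7 (0.48), Ccne1 (0.53) and E2f1 (0.42) were also lost without double negative replicate 2, and E2f1 (0.40) without either mature library. Without immature replicate 2, Mcm4 (0.47) was called higher and Aurka (-0.67) lower. Median-ratio rescaling ended the calls of Mcm6 (0.19), Mcm7 (0.23), Ccne1 (0.39) and E2f1 (0.20), and Aurka was called lower at -0.58. Chek1 was not tested after that rescaling. Cdt1, Mcm3, Pcna and Rrm2 kept their calls in each alternative in which they could be fitted. Rrm2 and Chek1 passed the filter through the immature libraries alone, and Ccne1 through them and 1 mature library. Their calls here therefore describe a selected set. The share of higher genes among all called genes was 81.2% as deposited, 48.7% after median-ratio rescaling, 39.8% after quantile normalization and 53.9% by voom. Of the 28 low genes, both immature values lay above both double negative values for 15 and below them for 1. Over all 44 the counts were 27 and 2, or 61.4% and 4.55%, against 40.2% and 15.5% of all genes above 0, not matched in read totals. The counting interval of the immature to double negative ratio lay above 1 for 3 of the 28 and below 1 for 1. It did so for 32% and 2.13% of the 2812 genes of like read totals.

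Further genes of the same pathways were read from 3 lists, and the members of each that are named had the largest differences between immature and mature cells. Of 44 other replication genes, 36 were tested, and 22 were higher in immature than in mature cells, 1 was lower and 13 did not pass, with a median of 0.42. Timeless, a protein of the replication fork, measured 1.91 and 1.90 RPKM in immature, 0.269 and 0.299 RPKM in mature and 1.13 and 1.07 RPKM in double negative libraries, and rose by 1.18 (SE 0.09, limma adjusted p = 0.000145). Gmnn, which holds Cdt1 inactive after origins have fired, measured 3.71 and 5.15 RPKM in immature, 1.41 and 1.53 RPKM in mature and 2.13 and 1.77 RPKM in double negative libraries, and rose by 1.12 (SE 0.15). Pole2, a subunit of a DNA polymerase that passed the filter through the immature libraries and 1 other, rose by 1.03 (SE 0.14) and Chaf1a, a histone chaperone, by 0.89 (SE 0.10), and exons of Ubxn6 overlap 52.5% of Chaf1a on the opposite strand. Gmnn, Pole2 and Chaf1a did not pass after quantile normalization, at 0.35, 0.19 and 0.05.

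Of 54 other mitosis genes, 19 were tested, and 8 were higher in immature than in mature cells, 3 were lower and 8 did not pass, with a median of 0.27. The separase inhibitor Pttg1 measured 4.18 and 4.64 RPKM in immature, 1.92 and 1.66 RPKM in mature and 2.72 and 3.12 RPKM in double negative libraries and rose by 0.96 (SE 0.10). The condensin gene Smc4 rose by 0.88 (SE 0.07), and the phosphatase gene Cdc25b, which activates Cdk1, by 0.86 (SE 0.20), a call lost without mature replicate 1 (0.81). Pttg1 and Cdc25b did not pass after quantile normalization, at 0.22 and 0.06, or with all libraries thinned to the shallowest, at 0.67 and 0.74. Spc25, a kinetochore gene, went the other way: it measured 18.1 and 15.8 RPKM in immature, 49.0 and 49.3 RPKM in mature and 13.5 and 13.9 RPKM in double negative libraries, and fell by 1.49 (SE 0.07, limma adjusted p = 2.29e-05). Spc25 lies 4878 bases from G6pc2, a beta cell gene on the other strand, which measured 1747 and 1760 RPKM in mature and 324.4 and 408.5 RPKM in immature libraries, and the part of that neighbour in the value was not tested.

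Of 24 regulators, 22 were tested, and 11 were higher in immature than in mature cells, 1 was lower and 10 did not pass, with a median of 0.32. Cdk2, the partner of the E cyclins, measured 4.81 and 4.29 RPKM in immature, 1.21 and 1.15 RPKM in mature and 1.60 and 1.83 RPKM in double negative libraries and rose by 1.35 (SE 0.10, limma adjusted p = 0.00011). E2f3, an activator E2F, rose by 1.15 (SE 0.09), while E2f1 fell. Rb1, the pocket protein that holds activator E2Fs, measured 11.9 and 13.1 RPKM in immature, 5.96 and 5.14 RPKM in mature and 7.19 and 8.20 RPKM in double negative libraries and rose by 1.04 (SE 0.10). Cdk6, a G1 kinase, rose by 0.96 (SE 0.10), from 0.145 and 0.125 RPKM in mature to 1.25 and 1.16 RPKM in immature libraries, through which alone it passed the filter. The shares of tested genes that were higher, 61.1% for replication, 42.1% for mitosis and 50% for regulators, stand beside 49.8% of all tested genes.

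**Figure D4:**
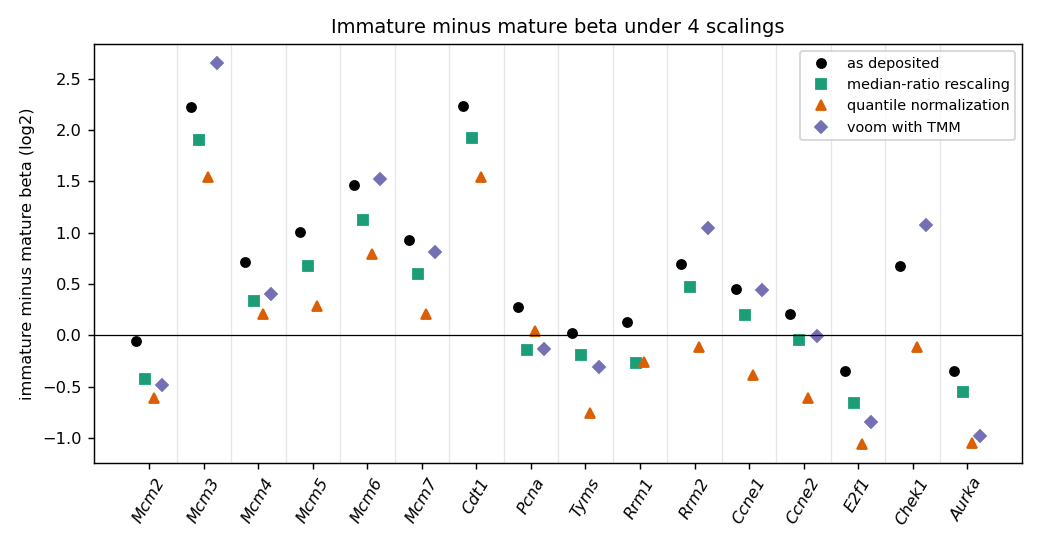
Immature minus mature difference on the log2 scale for the 16 tested genes under 4 scalings; voom works on read counts without the added 1 RPKM, and a missing point means the gene could not be fitted. Mcm3, Mcm6 and Cdt1 lie above 0 and E2f1 below 0 under each scaling shown for them, while Rrm2 and Ccne1 change side after quantile normalization, at -0.12 and -0.39.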

How the data were processed

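RNA sequencing of 6 libraries (3 groups of 2) was used. The authors deposited RPKM values, 1 column per library, and per the submitters' processing notes the tools were edgeR 3.14.0, STAR 2.5 and featureCounts, and the build was GRCm38.p4. The sources used here do not state the annotation, the strand setting or how multimapped reads were handled.

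Reads were recovered from RPKM steps with GENCODE M21 exonic lengths (GRCm38). Within 0.02 reads, 78.1% to 83.8% of low values per library were whole. Of the 44 genes, 36 were whole with that length, and for 8 the shortest length that made all 6 libraries whole was used. Intervals are exact (95%), use the recovered library sizes without rescaling and cover counting error only. Their background is genes below the filter with whole reads, a choice made after the values were seen.

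For genes reaching 1 RPKM in 2 or more libraries, log2(RPKM + 1) was fitted by limma 3.58.1 (R 4.3.3), with 3 group means over all 6 libraries, an intensity trend and Benjamini-Hochberg adjustment over all tested genes. The procedure was tested on simulated data. Alternatives covered pseudocount, filter, scaling, trend, weights, voom, thinning, replicate block and leaving out libraries. Named were members with a group mean of at least 1 RPKM or a call, Mki67, Top2a, Cdk1, Ccnb1 and Pcna, and the 4 largest calls of each further list. The other members are given by ranges and ratios, some chosen after their values were seen. The members and lists were chosen with earlier results of these data known. Groups and replicate numbers come from sample titles. The independence of the pools is not stated, and p-values cover library spread alone, which may be technical.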

Additional observations from a re-analysis of the deposited data

How the results depend on the processing

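With 2 libraries a group, each call rests on 3 residual degrees of freedom before moderation, and a group left with 1 library is assumed to vary like the others. With no filter 7531 of all 25803 genes were higher in immature than in mature cells, and 4118 of 8794 with a 5 RPKM filter. After quantile normalization 3367 of 13367 were higher and 5354 lower. The counts lower were 2165 with no filter, 1804 with 5 RPKM, 1841 of 13367 with library quality weights and 1407 of 13014 after thinning. With the 4 libraries alone 1858 of 13367 were lower, after median-ratio rescaling 5001 of 13239 and by voom 2903 of 8996. The number of the 44 genes called higher in immature than in mature cells was 17 with no filter, 5 with a filter of 5 RPKM and 3 after quantile normalization, and ran from 7 to 11 when 1 library was left out. The number lower was 0 with no filter, with the 5 RPKM filter, with library quality weights, after thinning and with the 4 libraries alone, 4 after median-ratio rescaling, 6 after quantile normalization and 2 by voom, and ran from 0 to 2 when 1 library was left out. For mature against double negative cells, 6 were higher after quantile normalization and 1 after thinning. Of all tested genes 3415 of 13367 and 2217 of 13014 were higher there. After quantile normalization 3443 of all 13367 genes and 2 of the members were lower. With 1 library left out, 3 to 4 were higher and 2 to 5 lower. For immature against double negative cells, 5 were higher with the 5 RPKM filter, 6 after median-ratio rescaling, 4 after quantile normalization and 4 by voom, and 7 to 12 with 1 library left out. The number lower was 1 with no filter, 2 after median-ratio rescaling and 4 after quantile normalization, and 0 to 1 with 1 library left out. Over all tested genes of that comparison, 4252 of 8794 were higher with the 5 RPKM filter and 2417 of 8996 by voom. After median-ratio rescaling 3362 of 13239 were higher and 3545 lower, and after quantile normalization 2921 and 4426 of 13367. With no filter 1626 of 25803 were lower. Filters change which genes are tested, Chek1 was not tested after median-ratio rescaling, and Mcm5, Cdt1 and Rrm1 could not be fitted by voom. The cause of the other changes was not tested. The depth of the immature libraries limits the 28 genes below the filter.

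Directions turned for some genes. In immature against mature cells, median-ratio rescaling gave -0.15 for Pcna, -0.19 for Tyms, -0.27 for Rrm1 and -0.046 for Ccne2. Quantile normalization gave -0.75 for Tyms, -0.26 for Rrm1, -0.12 for Rrm2, -0.39 for Ccne1, -0.61 for Ccne2 and -0.12 for Chek1. By voom the values were -0.14 for Pcna, -0.31 for Tyms and -0.0086 for Ccne2, and leaving out 1 library moved Tyms from -0.066 (immature replicate 2) to 0.11 (immature replicate 1). In mature against double negative cells, quantile normalization gave 0.029 for Mcm5, 0.18 for Cdt1, 0.30 for Tyms, 0.098 for Ccne2 and 0.22 for Aurka. Tyms was at 0.035 after median-ratio rescaling and 0.0398 by voom, and between -0.088 and 0.031 without double negative replicate 1 or 2. In immature against double negative cells, quantile normalization gave -0.037 for Mcm4, -0.33 for Rrm1 and -0.10 for E2f1, and median-ratio rescaling -0.28 for Rrm1. With 1 library left out, Tyms ran from -0.094 (immature replicate 2) to 0.085 (immature replicate 1), Rrm1 from -0.031 (immature replicate 1) to 0.049 (immature replicate 2) and Ccne2 from -0.081 (double negative replicate 1) to 0.032 (double negative replicate 2).

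Libraries of different groups share a replicate number in their titles, and nothing in the labels says that a number marks a shared pool. Deviations from the group means correlated at -0.00933 between immature and mature, 0.14 between immature and double negative and -0.112 between mature and double negative libraries over 13367 genes. With the replicate number as a block, 10 of the 44 genes were higher and 1 lower in immature than in mature cells, 3 higher and 3 lower in mature than in double negative cells, and 11 higher and 0 lower in immature than in double negative cells. Under the block Pcna gained a call in immature against mature cells and Mcm4 lost its call in mature against double negative cells.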
